A study of Rattus norvegicus with 6 samples.

Results

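The chemokines and chemokine receptors of the rat were followed in healing liver taken on day 14 after injury, when the wound had been dressed with AKOC or with Quik-clot. They were taken as every protein-coding gene of the deposited table whose symbol is Ccl, Cxcl, Cx3cl, Xcl, Ccr, Cxcr, Cx3cr, Xcr or Ackr followed by a digit. The rule gave 55 genes of 16902 protein-coding genes, in a table of 20104 genes, with 33 ligands and 22 receptors. AKOC, an abbreviation the labels do not spell out, is the haemostatic dressing under study, and Quik-clot, a commercial one, is its control; the series title speaks of kaolin on cotton. Each dressing had 3 libraries of total RNA from liver, and all of them came from wounded liver, so no group shows the uninjured level. The labels give no strain, sex or age, and do not say whether the libraries of a dressing came from separate animals. The p-values therefore measure the spread between these libraries, which may be technical.

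Chemokines are small secreted proteins that draw leukocytes along a gradient. They are named after the spacing of their first cysteines (CC, CXC, CX3C and XC) and bind receptors of the G protein-coupled class on the cells they attract. The atypical receptors (Ackr genes) bind and remove chemokines without coupling to G proteins. In liver, Kupffer cells, sinusoidal endothelium, stellate cells and hepatocytes all make chemokines, and the receptors are carried mostly by incoming or resident leukocytes. In bulk tissue, fewer cells of a type and less RNA per cell cannot be told apart.

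Total counts per library ran from 40402312 to 41455378. Hepatocyte markers (8 of 8 measured) summed to 82239 to 116379 CPM (counts scaled to 1e6 per library, with TMM factors) after Quik-clot and 89456 to 145363 CPM after AKOC, and none of them was at 0 in any library. Marker sums set some libraries apart. The NK cell markers (8 of 8 measured) summed to 40.7 CPM in Quik-clot replicate 2 and to 9.86 to 13.7 CPM in the other 5. Neutrophil Lcn2, which hepatocytes also make in the acute phase, stood at 3167 CPM in Quik-clot replicate 3 against 3.10 to 262 CPM elsewhere. Of the 37 genes tested, 20 turned the sign of their log2 fold change when 1 of the 6 libraries was left out, and the values that moved most are given beside the results.

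Of the 55 genes, 37 were measured well enough to be tested, 20 ligands and 17 receptors. The other 18 were under 10 counts in 3 libraries and carried 181 counts in all 6 libraries together. Among these were 13 ligands (Ccl1, Ccl7, Ccl11, Ccl12, Ccl17, Ccl22, Ccl25, Ccl26, Ccl28, Cxcl2, Cxcl3, Cxcl6 and Cxcl17) and 5 receptors (Ccr1l1, Ccr3, Ccr4, Ccr8 and Ccr10). In 16 of them no library held more than 5 counts. The exceptions were the eosinophil receptor Ccr3, with 24 counts in AKOC replicate 1 and 3 to 7 elsewhere, and the monocyte attractant Ccl7, with at most 8. A count of 0, found in at least 1 library for 16 of the 18, allows up to 3 counts, which is 0.065 to 0.081 CPM in these libraries. Transcripts of the CCR4 ligands Ccl17 and Ccl22, of the neutrophil attractants Cxcl2, Cxcl3 and Cxcl6 and of the eotaxins Ccl11 and Ccl26 were thus at or near the detection limit with either dressing.

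**Figure D1:**
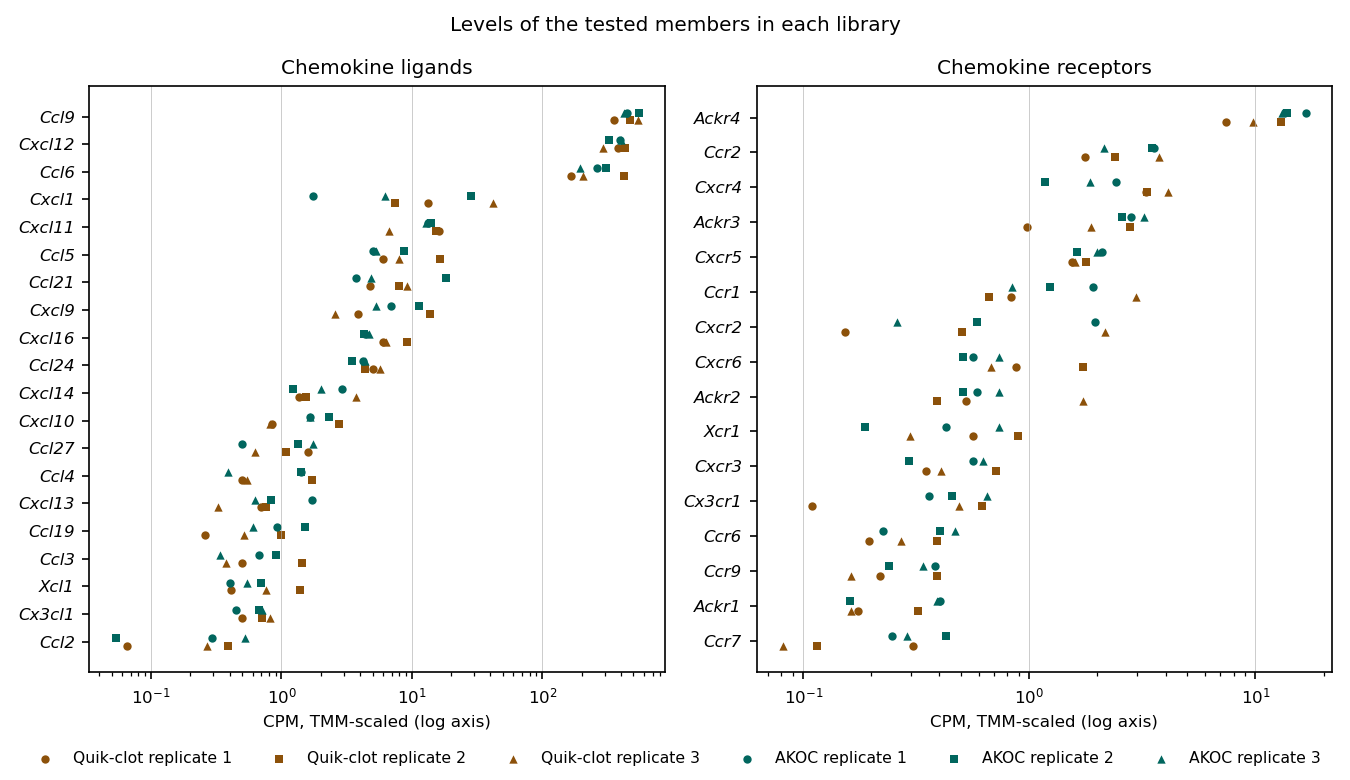
TMM-scaled CPM (log axis) of the 20 tested ligands and 16 of the 17 tested receptors, each point a library, brown for Quik-clot and green for AKOC, with the replicate shown by the marker. Ccl9, Cxcl12 and Ccl6 stand apart at 166 CPM or more in all 6 libraries, and for most genes the colours are intermixed.

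Levels per transcript length (FPKM, means over 6 libraries) were dominated by few ligands. Ccl9 averaged 348 FPKM, Ccl6 188 FPKM and Cxcl12 54.1 FPKM, and these made up 87.7% of the summed ligand FPKM. Ccl9 and Ccl6 are CC chemokines of rodents that signal through Ccr1, and Cxcl12 is the ligand of Cxcr4 and Ackr3. Cxcl1 (16.8 FPKM), Ccl5 (14.2 FPKM), Cxcl9 (13.3 FPKM), Cxcl11 (12.6 FPKM) and Ccl21 (9.37 FPKM) followed. Receptors were far lower per length, with a summed mean of 16.4 FPKM against 672 FPKM for the ligands. Ackr4 (6.11 FPKM) led them, and Cxcr4 (1.59 FPKM), Ackr3 (1.11 FPKM) and Ccr1 (0.746 FPKM) were lower.

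For the most abundant ligands the dressings did not differ beyond the spread between libraries. Ccl9 stood at 353, 470 and 546 CPM after Quik-clot, against 447, 549 and 423 CPM after AKOC (457 ± 97.0 and 473 ± 66.7 CPM, mean ± SD, n = 3). Cxcl12 stood at 384, 431 and 290 CPM after Quik-clot, against 391, 323 and 402 CPM after AKOC (368 ± 71.6 and 372 ± 42.8 CPM). Ccl6 stood at 166, 420 and 206 CPM after Quik-clot, against 262, 309 and 194 CPM after AKOC (264 ± 137 and 255 ± 58.0 CPM). The groups overlapped for all 3 genes, and the high Ccl6 value belonged to Quik-clot replicate 2. Log2 fold changes, AKOC over Quik-clot, were 0.05 ± 0.21 (SE) for Ccl9, 0.01 ± 0.19 for Cxcl12 and -0.05 ± 0.36 for Ccl6, with edgeR adjusted p of 0.93, 0.98 and 0.97. The sign of Ccl9 and Cxcl12 turned with library totals as the only scaling (-0.01 and -0.07), and that of Ccl6 without Quik-clot replicate 2 (0.46).

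The question put by the design was how much chronic inflammation each dressing leaves. The edgeR quasi-likelihood test, with Benjamini-Hochberg adjustment over all 13872 genes tested, called 0 ligands and 0 receptors, as it called 0% of all genes. Adjusted p for the chemokine genes ran from 0.332 to 0.996. At an unadjusted p under 0.05 there were 4 of 37, among them Cxcl16 and Cxcr4 lower and Ackr4 higher after AKOC, or 10.8%, against 12.0% of all genes tested. By direction this was 3 of 37 lower against 5.57% of all genes, and 1 higher against 6.48%. DESeq2 called 0 of the 37 at an adjusted p under 0.05, against 2.08% of all genes, and gave the same 4 genes at an unadjusted p under 0.05 (13.1% of all genes). Groups did not overlap for 3 of 37 genes (Cxcl16 and Cxcr4 lower, Ackr4 higher), or 8.11%, against 18.4% of all genes. Over all genes, 8.84% were lower and 9.53% higher without overlap.

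Ligands and receptors gave 1 of 20 and 3 of 17 genes at an unadjusted p under 0.05. Of the ligands 11 had positive and 9 negative log2 fold changes, with a median of 0.03, and of the receptors 11 positive and 6 negative, with a median of 0.21. Over all genes tested the median was -0.01. The receptor median turned to -0.18 without Quik-clot replicate 1. That library held the lowest level for 7 of the 17 receptors (41.2%), against 20.4% of all genes tested. The SE of a chemokine gene's log2 fold change had a median of 0.50, against 0.20 over all genes tested, so the estimates for this family were less precise than the typical gene's.

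**Figure D2:**
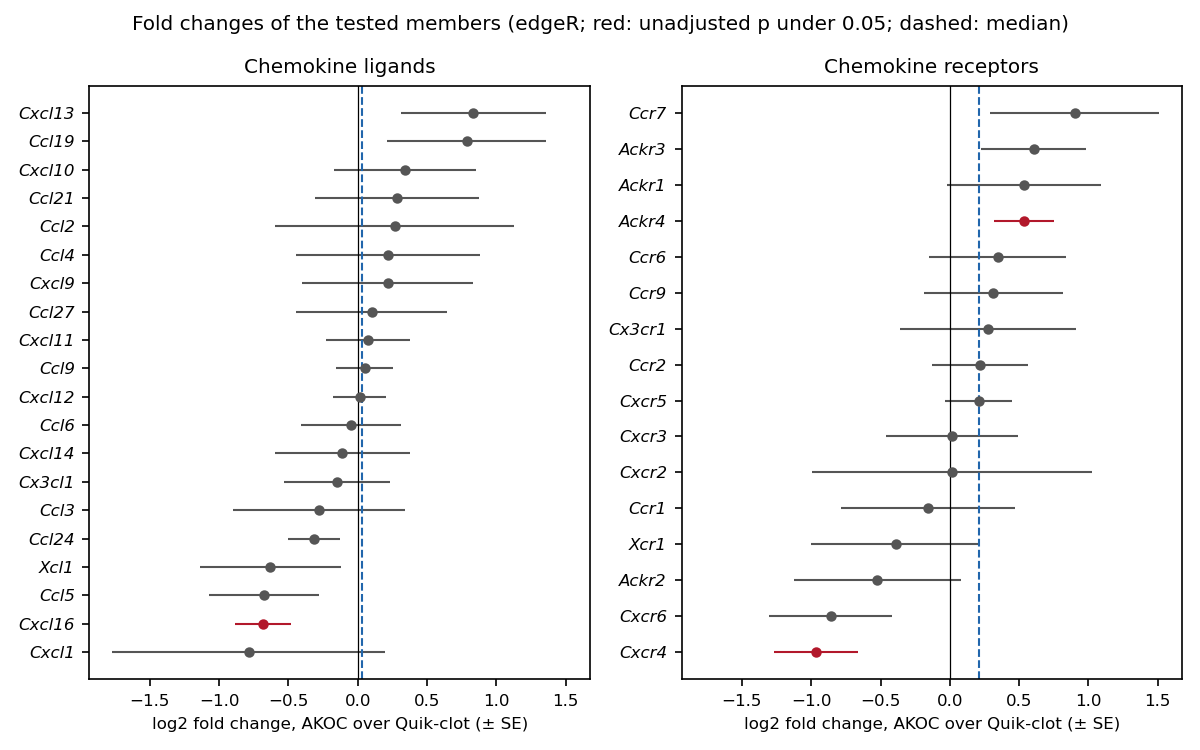
Log2 fold change, AKOC over Quik-clot, of the 20 tested ligands and 16 of the 17 tested receptors from edgeR, with the SE as bars, red for an unadjusted p under 0.05 and a dashed line at the median of the panel (0.03 for ligands, 0.21 for receptors). Cxcl16 and Cxcr4 lie at the low end and Ackr4 among the highest receptors with a short bar; no gene passed the adjustment.

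Cxcl16, a membrane-bound chemokine that also acts as a scavenger receptor for oxidised lipoprotein on macrophages and is shed to attract cells with Cxcr6, had the smallest p of the family. It stood at 5.99, 9.15 and 6.30 CPM after Quik-clot, against 4.33, 4.32 and 4.69 CPM after AKOC (7.14 ± 1.74 and 4.45 ± 0.21 CPM). Every AKOC library lay below every Quik-clot library, and the AKOC libraries were nearly equal. The log2 fold change was -0.68 ± 0.20 (edgeR unadjusted p = 0.011, adjusted p = 0.33). Leaving out a library moved it between -0.80 and -0.46, the smallest size being without Quik-clot replicate 2. Its receptor Cxcr6, found on resident T and NK cells of liver, stood at 0.871, 1.72 and 0.675 CPM after Quik-clot, against 0.561, 0.507 and 0.730 CPM after AKOC, with overlap (-0.86 ± 0.45, adjusted p = 0.47; -0.37 ± 0.41 without Quik-clot replicate 2). The RefSeq span of Cxcl16 overlaps Zmynd15 (0.023 to 0.326 CPM) and that of Cxcr6 overlaps the far more abundant Fyco1 (47.6 to 64.6 CPM, 0.16 ± 0.13). Only whole spans were compared, not exons, and the strand setting of the counting is not given. Whether reads of overlapping genes were mixed is therefore not known.

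Macrophage and Kupffer cell markers were mostly below 0 as well. Of 10 measured, 9 had negative log2 fold changes, with a median of -0.30 and 3 lower at an unadjusted p under 0.05 (Cd163 at -0.51 ± 0.16, Mrc1 at -0.40 ± 0.14 and Csf1r at -0.59 ± 0.24), 0 after adjustment. Over all genes tested 51.9% were negative and 5.57% lower at that threshold. Without Quik-clot replicate 2, 6 of the 10 were negative, with a median of -0.07 and 2 lower at that threshold. Of the 10 markers, 1 was lower at that threshold without AKOC replicate 1 and 0 without AKOC replicate 3. Their sum was 990, 1590 and 1198 CPM after Quik-clot, against 1089, 1182 and 810 CPM after AKOC, and no marker was at 0 in any library. Some other marker lists also had mostly negative values, with 7 of 7 for sinusoidal endothelium (median -0.22, 2 lower at an unadjusted p under 0.05), 4 of 5 for cholangiocytes (median -0.61) and 5 of 6 for dendritic cells (median -0.33). Without Quik-clot replicate 2 the dendritic list had 3 of 6 negative, with a median of 0.18. The cholangiocyte median was -0.22 without Quik-clot replicate 1. Hepatocyte markers had 5 of 8 negative (median -0.27, 1 lower at an unadjusted p under 0.05). Without Quik-clot replicate 3, 2 of these 8 were negative, with a median of 0.31. Stellate cell markers were split, with 4 of 8 negative (median 0.01, 1 higher at an unadjusted p under 0.05). Of the B and plasma cell markers 4 of 6 were negative (median -0.08). The part of any of these cells in the Cxcl16 difference was not tested.

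Cxcr4, the receptor of Cxcl12 that retains haematopoietic cells and lymphocytes in tissue, stood at 3.29, 3.30 and 4.11 CPM after Quik-clot, against 2.43, 1.18 and 1.85 CPM after AKOC (3.57 ± 0.47 and 1.82 ± 0.63 CPM). The groups did not overlap, and its log2 fold change was -0.97 ± 0.30 (edgeR unadjusted p = 0.014, adjusted p = 0.34), between -1.23 and -0.74 with a library left out. Ackr3, the scavenging receptor for the same ligand, stood at 0.979, 2.80 and 1.86 CPM after Quik-clot, against 2.81, 2.56 and 3.21 CPM after AKOC. Quik-clot replicate 2 reached into the AKOC range, and the log2 fold change was 0.60 ± 0.38 (adjusted p = 0.55), or 1.01 ± 0.35 without that library (edgeR unadjusted p = 0.028, adjusted p = 0.24). Without Quik-clot replicate 1, its lowest library, it was 0.29 ± 0.29 (edgeR unadjusted p = 0.34). Within this axis the ligand's estimate was near 0, that of the signalling receptor negative and that of the scavenging receptor positive, and none passed the adjustment.

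The sequences before the transcription start are shown for the 3 genes whose groups did not overlap, so that the family's leading differences can be read beside their sequence. They come from RefSeq on GRCr8, which is not the build of the deposited counts (mRatBN7.2), and span the 250 bases before the start, 5′ to 3′ on the strand of the gene. They lie at chr10:55669951-55670200 (- strand) for Cxcl16, chr13:42634289-42634538 (- strand) for Cxcr4 and chr8:113599763-113600012 (- strand) for Ackr4. Capitals mark matches to the TATA box (TATAAA), the ISRE core (GAAA, any 2 bases, GAAA) or the NF-kappaB consensus, each searched on both strands.

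Cxcl16: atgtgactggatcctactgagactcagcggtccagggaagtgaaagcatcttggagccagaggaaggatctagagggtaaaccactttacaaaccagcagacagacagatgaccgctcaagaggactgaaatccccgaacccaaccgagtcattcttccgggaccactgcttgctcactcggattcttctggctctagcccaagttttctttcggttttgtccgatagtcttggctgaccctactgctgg
Cxcr4: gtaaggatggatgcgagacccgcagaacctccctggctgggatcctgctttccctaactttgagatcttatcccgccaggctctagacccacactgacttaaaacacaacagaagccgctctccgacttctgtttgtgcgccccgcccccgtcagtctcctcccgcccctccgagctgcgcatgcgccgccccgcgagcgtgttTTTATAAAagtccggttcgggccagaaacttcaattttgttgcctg
Ackr4: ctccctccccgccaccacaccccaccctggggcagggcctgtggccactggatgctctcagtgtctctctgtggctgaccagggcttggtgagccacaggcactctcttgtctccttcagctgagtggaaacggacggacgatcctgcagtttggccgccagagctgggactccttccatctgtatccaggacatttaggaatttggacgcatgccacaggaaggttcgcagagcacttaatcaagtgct

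Only the Cxcr4 stretch held a match among these 3, a TATA box read on both strands from overlapping letters that begin 46 and 44 bases before the start. The TATA box was present in 12.9% of the 33469 promoters of this length in the table.

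Ccl5, made by T and NK cells, was highest in Quik-clot replicate 2. It stood at 6.01, 16.3 and 7.997 CPM after Quik-clot, against 5.05, 8.62 and 5.35 CPM after AKOC, with a log2 fold change of -0.68 ± 0.40 (edgeR adjusted p = 0.52) that was -0.14 ± 0.29 without that library. Other inflammatory CC ligands were low: Ccl3 ranged from 0.339 to 1.44 CPM and Ccl4 from 0.391 to 1.72 CPM, each highest in Quik-clot replicate 2 and lowest in AKOC replicate 3. Their log2 fold changes were -0.28 ± 0.62 and 0.22 ± 0.66, and 0.53 ± 0.55 and 1.04 ± 0.63 without Quik-clot replicate 2. Ccr1, the receptor of Ccl6 and Ccl9 on myeloid cells, stood at 0.827, 0.665 and 2.97 CPM after Quik-clot, against 1.91, 1.23 and 0.834 CPM after AKOC, with a log2 fold change of -0.16 ± 0.63 that became 0.83 without Quik-clot replicate 3 and 0.13 with the replicate number as a block.

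**Figure D3:**
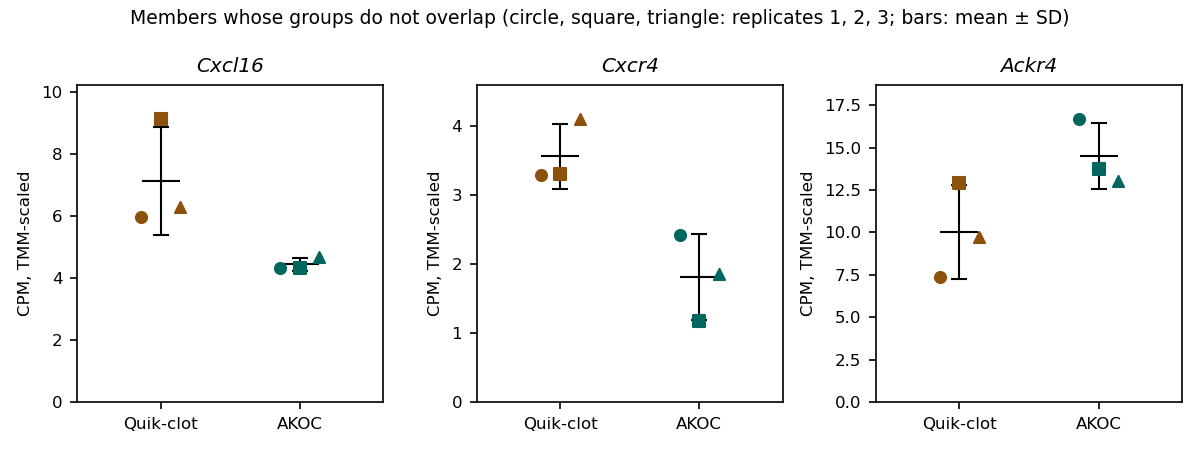
TMM-scaled CPM of the 3 genes whose groups did not overlap, each point a library and the bars the mean ± SD of 3 libraries. AKOC libraries lie below all Quik-clot libraries for Cxcl16 and Cxcr4 and above them for Ackr4, by a margin of 13.0 against 12.9 CPM in the last.

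NK cell markers were highest in the same library. All 8 had negative log2 fold changes, with a median of -1.01 and 2 lower at an unadjusted p under 0.05 (Gzma at -1.19 ± 0.47 and Prf1 at -1.002 ± 0.42), 0 after adjustment. Over all genes tested 51.9% were negative and 5.57% lower at that threshold. Without Quik-clot replicate 2, 5 of the 8 were negative, with a median of -0.23 and 0 at an unadjusted p under 0.05. Their sum was 13.7, 40.7 and 13.5 CPM after Quik-clot, against 10.7, 13.6 and 9.86 CPM after AKOC. T cell markers (10 of 10 in the table, 7 tested, 6 negative, median -0.33, or 2 of 8 and 0.17 without Quik-clot replicate 2) summed to 63.3 to 92.1 CPM after Quik-clot, against 48.9 to 69.9 CPM after AKOC, again highest in Quik-clot replicate 2, with no marker at 0. Most of that sum was Cd4, at 58.3, 75.6 and 56.2 CPM after Quik-clot, against 50.2, 59.7 and 41.4 CPM after AKOC. Cd3e ranged only from 0.365 to 1.90 CPM, so the sum mainly follows Cd4 and is not read here as a level of T cells. Relative to the mean of 6 libraries, Quik-clot replicate 2 held the NK sum at 2.39, Ccl5 at 1.99, Cxcr6 at 2.04 and Xcl1 at 1.97. Xcl1, which NK and CD8 T cells release to attract dendritic cells with Xcr1, stood at 0.413, 1.38 and 0.757 CPM after Quik-clot, against 0.404, 0.694 and 0.548 CPM after AKOC (-0.63 ± 0.51), and at -0.09 without Quik-clot replicate 2. Xcr1 itself ranged from 0.187 to 0.894 CPM and was also highest there. The part of NK and T cells in these values was not tested.

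**Figure D4:**
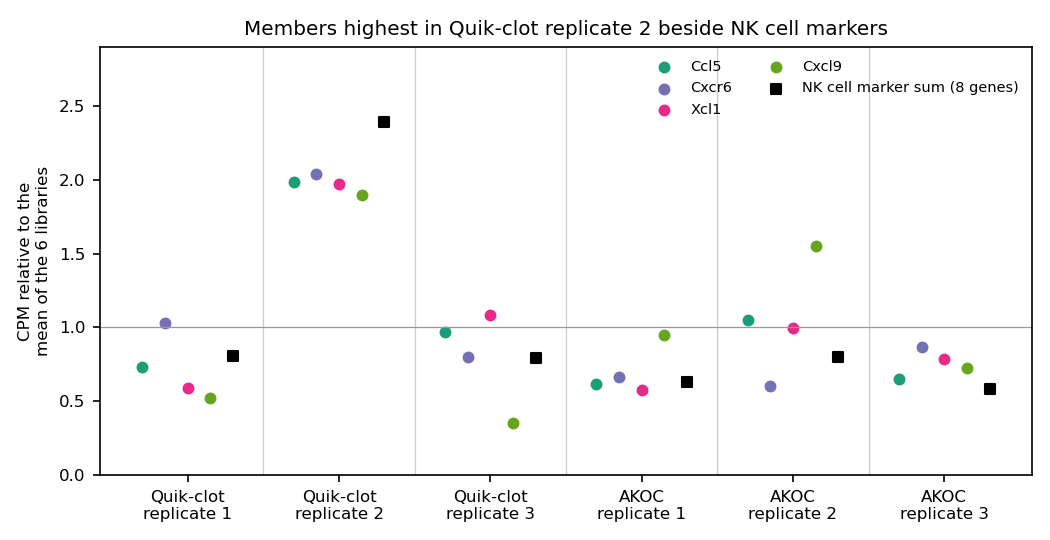
CPM of 4 genes of the family, chosen after their values were seen, and the summed CPM of 8 NK cell markers, each divided by its mean over the 6 libraries. In Quik-clot replicate 2 all 5 quantities stand between 1.90 and 2.39, while Cxcl9 alone is also above 1.5 in AKOC replicate 2.

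Cxcl9, Cxcl10 and Cxcl11 are induced by interferon and attract activated T and NK cells through Cxcr3. Cxcl9 stood at 3.83, 13.8 and 2.57 CPM after Quik-clot, against 6.94, 11.3 and 5.27 CPM after AKOC, and Cxcl10 at 0.849, 2.75 and 0.811 CPM and at 1.66, 2.30 and 1.64 CPM. For both genes Quik-clot replicate 2 was the highest of all libraries and the other Quik-clot libraries were the lowest. The log2 fold changes of 0.22 ± 0.62 and 0.34 ± 0.51 (adjusted p = 0.90 and 0.81) were accordingly 1.29 ± 0.38 and 1.16 ± 0.33 without that library (edgeR unadjusted p = 0.014 and 0.012, adjusted p = 0.20 and 0.19). The sign for Cxcl9 turned without Quik-clot replicate 1 (-0.07), Quik-clot replicate 3 (-0.16) or AKOC replicate 2 (-0.15), and Cxcl10 was at 0.06 without Quik-clot replicate 1 or replicate 3. Cxcl11 did not share this order, at 16.1, 15.4 and 6.67 CPM after Quik-clot, against 13.3, 14.0 and 12.9 CPM after AKOC (0.07 ± 0.31). Cxcr3 ranged from 0.294 to 0.711 CPM (0.02 ± 0.48). The spans of Cxcl10 and Cxcl11 overlap Art3, which was low (0.243 to 1.28 CPM).

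The upstream sequences of Cxcl10 and Cxcl11 are printed beside that of Cxcl1, a neutrophil attractant induced by interleukin 1 and TNF, as examples from the CXCR3 and neutrophil axes of the genes that hold a match to the NF-kappaB consensus. Cxcl9 held no match to any of the motifs. Build, length, strand and capitals are as above, at chr14:15988816-15989065 (+ strand) for Cxcl10, chr14:15973478-15973727 (+ strand) for Cxcl11 and chr14:17479322-17479571 (- strand) for Cxcl1.

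Cxcl10: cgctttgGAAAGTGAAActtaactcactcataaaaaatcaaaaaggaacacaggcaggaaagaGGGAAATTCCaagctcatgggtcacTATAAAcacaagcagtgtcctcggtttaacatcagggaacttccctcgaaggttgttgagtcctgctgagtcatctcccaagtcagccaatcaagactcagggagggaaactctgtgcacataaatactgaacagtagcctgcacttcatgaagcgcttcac
Cxcl11: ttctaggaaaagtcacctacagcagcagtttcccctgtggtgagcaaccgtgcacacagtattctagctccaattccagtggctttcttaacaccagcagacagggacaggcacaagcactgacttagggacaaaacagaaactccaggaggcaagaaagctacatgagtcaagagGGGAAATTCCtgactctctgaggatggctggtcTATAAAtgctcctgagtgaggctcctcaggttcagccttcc
Cxcl1: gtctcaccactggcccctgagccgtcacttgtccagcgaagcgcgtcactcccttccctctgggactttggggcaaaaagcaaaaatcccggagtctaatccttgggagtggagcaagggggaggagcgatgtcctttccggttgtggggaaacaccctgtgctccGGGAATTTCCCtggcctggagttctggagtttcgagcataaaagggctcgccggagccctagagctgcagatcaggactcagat

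Cxcl10 and Cxcl11 share the match GGGAAATTCC, which begins 187 bases before the start in Cxcl10 and 74 bases before it in Cxcl11. Cxcl1 holds GGGAATTTCC, 84 bases before its start, with an overlapping match on the other strand. Cxcl10 alone of the 3 has an ISRE core match, GAAAGTGAAA, 243 bases before the start. Promoters were found for 41 of the 55 genes. The NF-kappaB consensus was matched in 7 of these 41 (Ccl9, Ccr3, Cxcl1, Cxcl2, Cxcl6, Cxcl10 and Cxcl11), in 3.54% of all promoters of this length. The ISRE core was matched in Ccl19 and Cxcl10, in 3.41% of all promoters, and the TATA box in 12 of 41. Of the 7 genes with an NF-kappaB match, Ccl9 was the most abundant ligand while Cxcl2, Cxcl6 and Ccr3 were under 10 counts in 3 libraries.

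Cxcl1 had the largest SE of the 20 tested ligands. It stood at 13.2, 7.36 and 42.0 CPM after Quik-clot, against 1.75, 28.3 and 6.23 CPM after AKOC, a 16.2-fold range within AKOC and a 5.70-fold range within Quik-clot. Its log2 fold change was -0.79 ± 0.99 (edgeR adjusted p = 0.76) and ran from -2.40 without AKOC replicate 2 to 0.23 without Quik-clot replicate 3. The high libraries, Quik-clot replicate 3 and AKOC replicate 2, were also the highest for Lcn2 (3167 and 262 CPM). Its receptor Cxcr2, on neutrophils, followed another order, at 0.152, 0.504 and 2.16 CPM after Quik-clot, against 1.95, 0.587 and 0.261 CPM after AKOC. Its log2 fold change of 0.02 ± 1.01 became 1.52 ± 0.98 without Quik-clot replicate 3, while leaving out AKOC replicate 1 gave -1.13 ± 1.10. The neutrophil gene Csf3r stood at 1.31, 2.11 and 4.13 CPM after Quik-clot, against 6.78, 2.94 and 1.15 CPM after AKOC. Quik-clot replicate 3 and AKOC replicate 1 were the highest for both genes, and the part of neutrophils in these values was not tested. Of 8 neutrophil markers 4 were tested, 3 of them negative with a median of -0.76, and Mpo, Elane and Camp were at 0 in at least 1 library. Without Quik-clot replicate 3, 0 of the 4 were negative, with a median of 1.22. S100a8 and S100a9 were also highest in that library, at 43.0 and 55.9 CPM.

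Ackr4, which removes the lymphoid chemokines Ccl19, Ccl21 and Ccl25, stood at 7.40, 12.9 and 9.73 CPM after Quik-clot, against 16.7, 13.7 and 13.0 CPM after AKOC (10.01 ± 2.76 and 14.5 ± 1.95 CPM). Every AKOC library lay above every Quik-clot library, by a narrow margin for Quik-clot replicate 2. The log2 fold change was 0.53 ± 0.22 (edgeR unadjusted p = 0.042, adjusted p = 0.41), or 0.76 ± 0.19 without Quik-clot replicate 2 (adjusted p = 0.16). Leaving out Quik-clot replicate 1 gave 0.36 ± 0.19 and leaving out AKOC replicate 1 gave 0.42 ± 0.24, with unadjusted p of 0.10 and 0.13 by edgeR. With library totals as the only scaling its edgeR unadjusted p was 0.095, and with the replicate number as a block 0.062 (0.56 ± 0.24). Its span overlaps Acad11, an acyl-CoA dehydrogenase gene at 122 to 211 CPM whose log2 fold change had the other sign (-0.13 ± 0.20). Quik-clot replicate 1 was the lowest library for Ackr4 and the highest for Acad11. The part of Acad11 reads in the Ackr4 counts was not tested.

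The ligands that Ackr4 removes and the receptor Ccr7, which guides T cells and dendritic cells to lymphoid tissue, overlapped between the dressings. Ccl21 stood at 4.77, 7.98 and 9.16 CPM after Quik-clot, against 3.73, 18.2 and 4.82 CPM after AKOC. Its log2 fold change of 0.29 ± 0.59 rested on AKOC replicate 2 and was -0.78 ± 0.32 without it (edgeR unadjusted p = 0.049), and -0.03 ± 0.43 with the replicate number as a block. Ccl19 stood at 0.261, 0.986 and 0.513 CPM and at 0.920, 1.52 and 0.600 CPM (0.79 ± 0.57), and Ccr7 at 0.305, 0.115 and 0.081 CPM and at 0.247, 0.427 and 0.287 CPM (0.90 ± 0.61, adjusted p = 0.57), with at most 16 counts per library. Ccl19 and Ccl21 were both highest in AKOC replicate 2, and Ccl19 was at 0.37 without it and at 1.39 without Quik-clot replicate 2. Ccr7 was at 1.67 ± 0.65 without Quik-clot replicate 1. Cxcl13 and Cxcr5, which organise B cell follicles, ranged from 0.324 to 1.73 CPM and from 1.55 to 2.09 CPM, both highest in AKOC replicate 1. Their log2 fold changes were 0.84 ± 0.52 and 0.21 ± 0.24, and 0.29 ± 0.52 and 0.14 ± 0.29 without that library. B and plasma cell markers summed highest there too (118 CPM, against 66.6 to 107 CPM elsewhere). Cxcr5 overlaps the more abundant Bcl9l (16.02 to 30.9 CPM).

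Monocyte recruitment genes overlapped as well. Ccl2, the main attractant of monocytes, ranged from 0.053 to 0.522 CPM, both extremes within AKOC, and had 2 to 20 counts per library. Its receptor Ccr2 stood at 1.76, 2.38 and 3.76 CPM after Quik-clot, against 3.57, 3.47 and 2.14 CPM after AKOC (0.22 ± 0.35, adjusted p = 0.82). Cx3cr1 of patrolling monocytes ranged from 0.109 to 0.652 CPM and its ligand Cx3cl1 from 0.449 to 0.811 CPM. Ccl24, an eosinophil attractant made by macrophages, stood at 5.01, 4.40 and 5.73 CPM after Quik-clot, against 4.24, 3.50 and 4.41 CPM after AKOC (5.04 ± 0.664 and 4.05 ± 0.485 CPM). It had the smallest SE of the family (-0.32 ± 0.19, adjusted p = 0.52), and its groups overlapped at 4.41 against 4.40 CPM.

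The remaining 6 tested genes overlapped between dressings. Cxcl14 ranged from 1.23 to 3.76 CPM, and Ccl27, a skin-homing ligand whose span overlaps Il11ra1 (12.2 to 15.2 CPM), from 0.494 to 1.75 CPM. Ccr6 and Ccr9, receptors of mucosal lymphocytes, reached at most 0.469 and 0.390 CPM, and Ackr1, the Duffy receptor of red cells and venules, 0.404 CPM. Ackr2, a scavenger of inflammatory CC chemokines, stood at 1.73 CPM in Quik-clot replicate 3 and at 0.390 to 0.730 CPM elsewhere. Absolute log2 fold changes of these genes and of Xcr1 were 0.54 or less with all libraries. With a library left out Ackr2 ran from -0.88 (without Quik-clot replicate 2) to 0.41 (without Quik-clot replicate 3), Ackr1 reached 0.91 (without Quik-clot replicate 2) and Xcr1 -0.92 (without AKOC replicate 3).

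Single libraries thus set many of these values. Of the 37 tested genes 14, or 37.8%, reached their highest level in Quik-clot replicate 2 (9 of 20 ligands and 5 of 17 receptors), where 16.3% of all genes tested did. Quik-clot replicate 1 was the highest library for 1 of the 37 and the lowest for 10. The spread within a dressing was wide: the highest library was at least 2-fold above the lowest for 26 of 37 genes (70.3%) within Quik-clot and 17 (45.9%) within AKOC, against 20.4% and 15.4% of all genes tested. These shares are descriptions, and 20 of the 37 genes had a mean of 1 CPM or more.

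**Figure D5:**
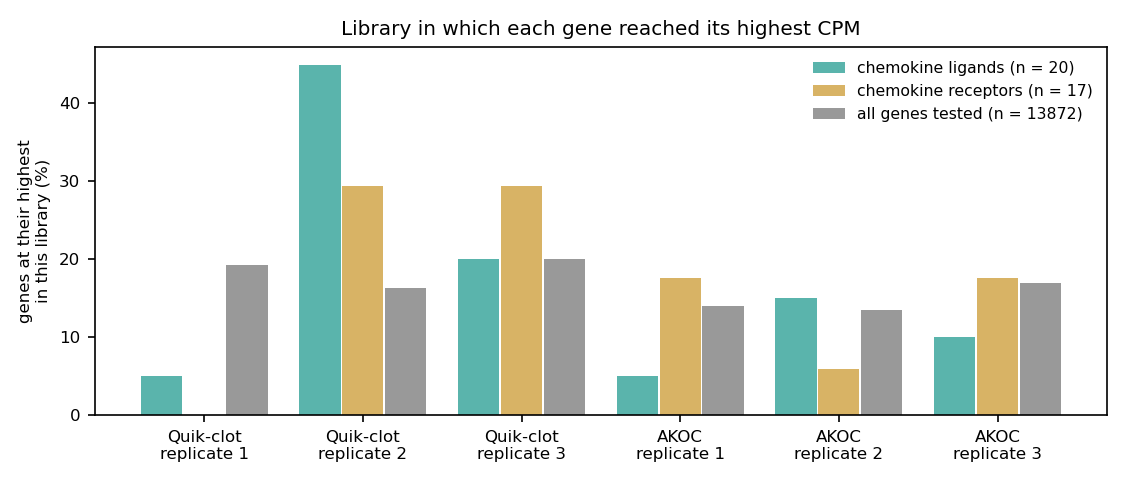
Share of genes (%) that reached their highest CPM in each library, for the 20 ligands, the 17 receptors and all 13872 genes tested. Quik-clot replicate 2 holds 45% of the ligand maxima and 29.4% of the receptor maxima, against 16.3% for all genes.

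Chemokine receptors signal through Gi proteins to phosphoinositide 3-kinase gamma, Rac and integrins, and are switched off by G protein-coupled receptor kinases, arrestins and RGS proteins. Of 37 such genes, all tested, 0 were higher and 3 lower after AKOC at an unadjusted p under 0.05 (8.11%, against 5.57% lower over all genes), 0 after adjustment. Of the 37, 28 were negative, with a median of -0.17, and 19 without Quik-clot replicate 2, with a median of -0.03, where 51.9% of all genes were negative. The lower genes were the receptor kinases Grk3 and Grk2 and the regulator Rgs1. Grk3 stood at 5.64, 6.26 and 4.84 CPM after Quik-clot, against 3.01, 3.15 and 3.18 CPM after AKOC, without overlap and with a log2 fold change of -0.84 ± 0.17 (edgeR unadjusted p = 0.0018, adjusted p = 0.29). Rgs1 (-2.11 ± 0.79) was high in a single library, Quik-clot replicate 3 at 2.49 CPM against 0.183 to 0.527 CPM, and had -0.82 ± 0.53 without it. Grk2 had -0.30 ± 0.12. Vav1, a Rac activator of leukocytes, had -0.56 ± 0.24.

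Of 21 measured regulators of chemokine genes, most switch them on, while Nfkbia and Tnfaip3 inhibit NF-kappaB. At an unadjusted p under 0.05, 0 were higher and 4 lower, Nfkbia among these, and 0 after adjustment. Of the 21, 18 were negative, with a median of -0.26. Over all genes tested 5.57% were lower, 6.48% higher and 51.9% negative. Without Quik-clot replicate 3, 14 were negative, with a median of -0.16 and 2 lower. Nfkbiz, a co-activator of NF-kappaB targets, stood at 45.5, 47.4 and 59.7 CPM after Quik-clot, against 29.3, 39.6 and 28.5 CPM after AKOC (-0.65 ± 0.17, adjusted p = 0.32), without overlap. Irf1, an interferon-induced factor, stood at 28.8, 30.5 and 23.7 CPM and at 21.1, 21.97 and 17.97 CPM (-0.44 ± 0.14, adjusted p = 0.34), also without overlap. Ltbr had -0.37 ± 0.14 and the NF-kappaB inhibitor Nfkbia -0.37 ± 0.16. Of 10 tested genes for chemokine-like proteins and chemokine-modifying enzymes 5 were negative, with a median of -0.02. Mif was higher (0.62 ± 0.20) and its receptor subunit Cd74 lower (-0.9999 ± 0.38, highest in Quik-clot replicate 2 and -0.47 ± 0.24 without it) at an unadjusted p under 0.05, 0 after adjustment. At that unadjusted threshold 0 of the 10 were higher without Quik-clot replicate 3 or without AKOC replicate 2. Without AKOC replicate 1 or without AKOC replicate 3, 0 were lower. Ccrl2 had -0.74 ± 0.34 and Hmgb1 -0.22 ± 0.13.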

How the data were processed

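RNA-seq of rat liver on day 14 covers 3 AKOC and 3 Quik-clot libraries, grouped and numbered by their titles. The authors deposited whole-number read counts per gene without normalization, and FPKM for the same genes, per the file headers. fastp, HISAT2, HTSeq and the build mRatBN7.2 are named in the submitters' processing notes; tool versions, annotation and strand setting were not among what is given in the sources used here. The deposited FPKM equal count over length and library total (largest relative error 8.58e-07). Here genes were filtered with filterByExpr (minimum count 10, minimum total 15), scaled by TMM and tested with edgeR 4.0.16 in R 4.3.3 (quasi-likelihood F test, two-sided, dressing as the only term, Benjamini-Hochberg over all 13872 genes, threshold 0.05); SE is the log2 fold change over the root of F. The test was checked on simulated data. Replicate pairs differed by far more than sampling noise (chi-square per degree of freedom 144.6 to 405.9). Same-numbered libraries did not deviate together (correlations -0.072, -0.082 and -0.201), so the numbers were not taken as pairs. An exact permutation test of 3 against 3 cannot go below 0.1. Alternatives were DESeq2 1.42.0, other scalings and filters, a replicate block and leaving out each library.

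The genes and lists were chosen with earlier results of these data known. Library values are given for genes with an unadjusted p under 0.05, for those without overlap at a mean of 1 CPM or more, and for the 5 ligands and 5 receptors of highest FPKM; up to 4 genes of smallest p are named per list. Values given for further genes were chosen after they were seen. The values of 1 receptor are not reported here; it is counted in all totals. All 55 genes matched RefSeq by gene ID, and its GRCr8 table was used for overlaps between genes and for upstream sequences. The floor given for a count of 0 covers counting error only, while SD and SE include the spread between libraries.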

Additional observations from a re-analysis of the deposited data

How the results depend on the processing

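No ligand or receptor passed an adjusted p of 0.05 under any alternative run. Over all genes, DESeq2 called 289 (193 higher, 96 lower) and the fit with the replicate number as a block called 1, where edgeR called 0; leaving out a library gave 0 to 18, the most without Quik-clot replicate 2 (12 higher, 6 lower), 10 without AKOC replicate 1 and 2 without AKOC replicate 2. Ligands at an unadjusted p under 0.05 numbered 1 in the reported fit, 2 with the replicate block (Cxcl16 and Ccl5) and 1 to 3 with a library left out. They were 3 without Quik-clot replicate 2 (Cxcl9 and Cxcl10 higher, Cxcl16 lower), 3 without AKOC replicate 2 (Cxcl16, Cxcl1 and Ccl21 lower) and 2 without Quik-clot replicate 1. Receptors numbered 3, 2 with the replicate block and with library totals only (Ackr4 missing from both), and 1 to 3 with a library left out, with 1 (Cxcr4) without AKOC replicate 1. Over all genes tested, the share at an unadjusted p under 0.05 also moved, from 12.0% in the reported fit. Dropping Quik-clot replicate 2 raised it to 17.0%, against 16.2% of the 37 chemokine genes. Dropping AKOC replicate 2 lowered it to 7.99%, against 13.5% of the 37. After dropping AKOC replicate 1 the shares were 11.1% and 5.41%. They were 9.06% and 10.8% with the replicate block, and 8.25% and 8.11% with library totals only. The ligand median ran from -0.15 to 0.19 and the receptor median from -0.18 (without Quik-clot replicate 1) to 0.37 with a library left out.

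Cxcl16, Cxcr4, Ccl5, Ackr3 and Ackr4 kept their sign under all 12 alternatives. Of the 37 tested genes 17 kept their sign without each library and 20 did not. With library totals only, Ccl9 was at -0.013 and Cxcl12 at -0.075, and with the replicate block Ccl6 was at 0.044 and Ccr1 at 0.13. With a library left out, Ccl9 ran from -0.10 to 0.20, Cxcl12 from -0.13 to 0.14, Ccl6 from -0.29 to 0.46, Ccr1 from -0.52 to 0.83 and Cxcl1 from -2.40 to 0.23. The cause was not tested. Depth limits the low genes: Ccr7, Ccr6, Ccr9 and Ackr1 had at most 18 counts in any library and Ccl2 at most 20.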
